A study of Canis lupus familiaris with 45 samples.

Results

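Left ventricular RNA of all dogs whose hearts had been paced rapidly was compared with that of dogs that had not been paced. The members were chosen from the sample titles: 12 paced dogs on 36 arrays and 3 unpaced dogs on 9 arrays, which together are all 15 dogs and all 45 arrays of the series. All dogs were male and matched in age; the age itself is not given in the sources used here. A pacemaker lead was fixed to the outer surface of the right ventricle, and pacing ran at 240 pulses per minute from shortly after surgery. Pacing had lasted 3 days in the group Day-3, 1 week in Week-1, 2 weeks in Week-2 and 3 to 4 weeks in End-stage, in which end-stage heart failure was verified by haemodynamic measurement. The Day-0 dogs were the unpaced controls. The labels do not say whether they received the thoracotomy and the lead, so surgery and pacing cannot be told apart here. Each group held 3 dogs, and a full-thickness piece of left ventricle was taken from each. RNA was isolated 3 times from each piece, and each isolation had its own single-colour oligonucleotide array.

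Rapid pacing is a standard way to bring on heart failure in a large animal without infarction or pressure load: the ventricle dilates and loses contractile force while its wall does not thicken much. The working heart draws most of its energy from fatty acids, which are broken down in mitochondria and feed the tricarboxylic acid cycle and the respiratory chain. In failing ventricles, genes of mitochondrial energy metabolism are known to be expressed at lower levels, and genes of the extracellular matrix, the cytoskeleton and fetal muscle isoforms at higher ones.

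The comparison asks what is shared by the paced hearts whatever the length of pacing. Signals were taken as log2, averaged over the 3 arrays of a dog, and the mean of the 4 paced group means was set against the Day-0 mean with limma over 14302 probe sets. Values below are log2 signals of a dog, and differences are paced minus Day-0 on the log2 scale with their SE (n = 12 paced dogs and 3 Day-0 dogs). Adjusted p values are those of limma with Benjamini-Hochberg adjustment over all probe sets tested, and a call is an adjusted p under 0.05. A dog with a lower share of a cell type and a dog with less RNA per cell give the same value in such tissue, and these cannot be told apart.

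Before the results, the arrays were set against their labels. Over the probe sets that best told dogs apart, 4 of the 6 arrays labelled Week-1 dog 1 and End-stage dog 1 were closest to an array of the other of these dogs, against 0 of the other 39 arrays. Both dogs were paced, so the mean difference from Day-0 does not turn on which is which. They may not be independent animals, or some of their arrays may carry the wrong label. Isolation 2 of Week-1 dog 1 correlated at best at -0.29 with its own dog and at 0.77 with End-stage dog 1. Which of these holds was not tested, and the values of both dogs and of the stages Week-1 and End-stage carry this limit. Without both dogs 28 probe sets were called in place of 43, 17 of them the same, and 9 of the 20 called genes with a single symbol kept their call: SLC22A3, CLGN, THBS1, TRIB1, CCL2, ANTXR2, CALM3, TIMM8A and ATP6V1G2. The arrays carried the marks of ventricular muscle. The brightest probe sets of MYH7, MYL2, MYL3 and TNNT2 lay at a signal of 7504 or above in all 15 dogs. The atrial light chain MYL7 lay between 928 and 3040, and MYL4 between 130 and 1438. The GAPDH 3-prime minus 5-prime difference, a sign of RNA degradation, averaged -0.05 in Day-0 dogs and -0.08 in paced dogs (exact permutation p = 0.424 over 455 splits, two-sided), and that of actin averaged -2.70 and -2.35 (exact permutation p = 0.141).

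Few single genes separated the paced hearts from the unpaced ones with this number of dogs. Of the 14302 probe sets, 43 were called (0.301%), of which 20 rose in the paced dogs (0.14%) and 23 fell (0.161%). Their differences were moderate, from 1.39-fold to 3.23-fold, with a median size of 0.73 on the log2 scale. In 36 of the 43 the 12 paced dogs were separated from the 3 Day-0 dogs without overlap, 16 above and 20 below. The called probe sets were picked on these same values, so most of this separation follows from the call. Over all probe sets, such a complete separation occurred in 2.52% (0.909% above and 1.61% below). The median difference of all probe sets was -0.01, and 47.2% lay above 0. All arrays had nearly the same trimmed mean signal, which tends to hold this background near 0. A single symbol was carried by 20 of the called probe sets, 11 that rose and 9 that fell.

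**Figure D1:**
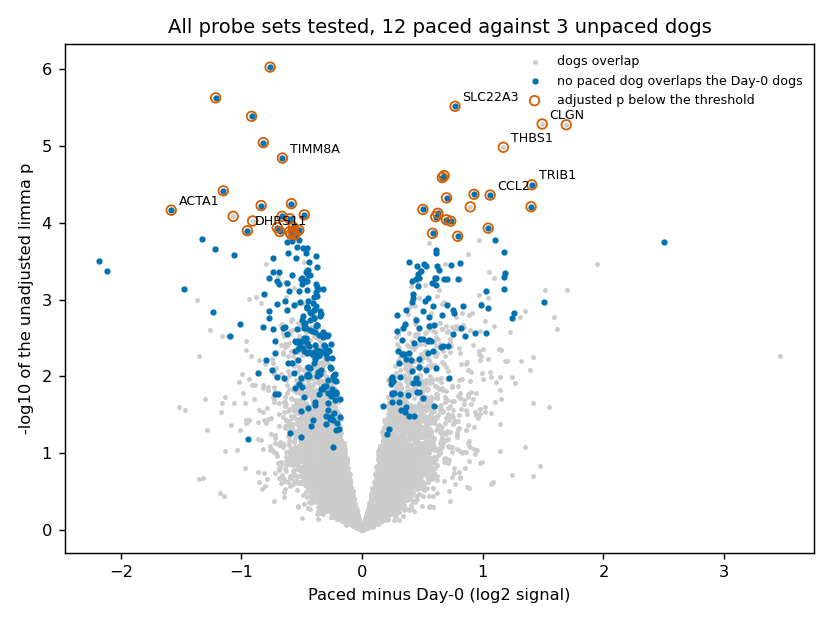
Difference between paced and Day-0 dogs (horizontal axis, log2) against its unadjusted limma p (vertical axis, minus log10), a point per probe set for 14302 probe sets; blue points have no overlap of dogs, orange rings mark the 43 called, and some called genes are named. The 20 that rose and the 23 that fell lie on both sides of a cloud whose median is -0.01.

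The largest rise among the called genes with a single symbol was that of CLGN, which encodes calmegin, a chaperone of the endoplasmic reticulum related to calnexin and best known from the testis. Its level was 5.60, 5.23 and 5.78 in the Day-0 dogs. In the paced dogs it ranged from 5.67 to 7.92 with a median of 7.20. A single paced dog, Day-3 dog 3, lay inside the Day-0 range. CLGN was 2.81-fold higher in paced dogs (difference 1.49, SE 0.21, adjusted p = 0.0126, limma). The differences of the stages were 0.68 at Day-3, 1.67 at Week-1, 2.11 at Week-2 and 1.51 at End-stage, so that the smallest was that of the shortest pacing.

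SLC22A3 encodes an organic cation transporter that takes up catecholamines and other amines outside neurons. The Day-0 dogs lay at 10.10, 10.04 and 10.42, and the paced dogs between 10.73 and 11.24 with a median of 10.95. The lowest paced dog was above the highest Day-0 dog, and the 4 stage differences lay between 0.64 and 0.88. The gene was 1.70-fold higher (difference 0.77, SE 0.11, adjusted p = 0.0126, limma). A dimmer probe set for it gave 0.48 with an adjusted p of 0.236.

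Among genes of the matrix and of the response of its cells, THBS1 and LOXL2 rose. THBS1, thrombospondin 1, is a matrix glycoprotein that binds cells and activates latent transforming growth factor beta. It lay at 8.14, 8.79 and 8.34 in the Day-0 dogs and between 8.60 and 10.27 in the paced dogs, with Day-3 dog 1 alone inside the Day-0 range. THBS1 was 2.25-fold higher (difference 1.17, SE 0.18, adjusted p = 0.0185, limma), with stage differences from 0.64 at Day-3 to 1.78 at Week-2. LOXL2, a lysyl oxidase that cross-links collagen, lay at 7.43, 7.62 and 6.88 in the Day-0 dogs and between 7.78 and 8.28 in the paced dogs, with no overlap. Its stage differences were close to each other, from 0.64 to 0.83, around a difference of 0.73 (SE 0.14, adjusted p = 0.044, limma). ANTXR2, a surface receptor for matrix proteins that is also an anthrax toxin receptor, rose by 0.63 (SE 0.12, adjusted p = 0.044, limma): 9.94, 10.09 and 10.23 in the Day-0 dogs against 10.44 to 11.01.

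CCL2, the chemokine that draws monocytes into tissue, was 2.09-fold higher (difference 1.06, SE 0.18, adjusted p = 0.0415, limma). The Day-0 dogs lay at 6.26, 5.97 and 5.82, and the paced dogs between 6.46 and 7.69, all above them. The 3 Week-2 dogs, at 7.60, 7.58 and 7.69, were the 3 highest of all dogs, with a stage difference of 1.60 against 0.76 at Day-3. CCL2 was the 1 gene called among the 12 tested of the list of inflammation and chemokines, whose median difference was 0.02. The share called higher over all probe sets was 0.14%.

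The signalling genes that rose were TRIB1, LGR4, AKAP13 and CALM3. TRIB1, a pseudokinase that guides proteins to ubiquitin ligation and binds kinases upstream of MAP kinases, was 2.65-fold higher (difference 1.41, SE 0.24, adjusted p = 0.0381, limma). It lay at 8.19, 7.87 and 7.93 in the Day-0 dogs and between 8.50 and 10.01 in the paced dogs. The lowest and the highest paced dogs were both Day-3 dogs. LGR4, a receptor for R-spondins that strengthens Wnt signalling, lay at 8.62, 8.43 and 8.69 against 8.91 to 9.96 (difference 0.79, SE 0.16, adjusted p = 0.0498, limma). AKAP13, an anchor of protein kinase A, lay at 9.10, 8.98 and 9.28 against 9.46 or more in the paced dogs, with a median of 9.85, a difference of 0.68 (SE 0.11, adjusted p = 0.0335, limma). Its 3 other tested probe sets gave 0.27, 0.39 and 0.31 without a call. CALM3, which encodes the calcium sensor calmodulin, lay at 8.94, 9.09 and 8.97 against 9.28 to 9.89 (difference 0.58, SE 0.11, adjusted p = 0.0487, limma), and its other probe sets gave 0.48 and 0.43. APOBEC2, a muscle member of the cytidine deaminase family, was 1.62-fold higher, at 9.78, 9.67 and 9.83 against 10.09 to 10.85, with no dog overlapping (adjusted p = 0.044, limma).

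**Figure D2:**
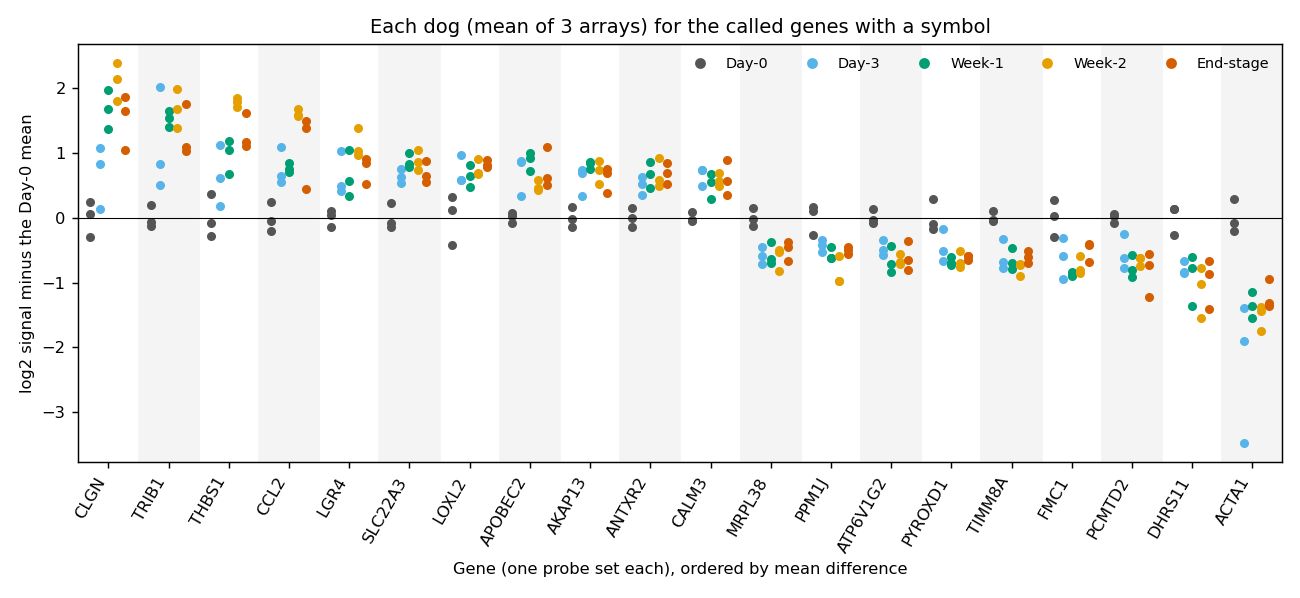
Log2 signal of each dog minus the Day-0 mean (vertical axis, mean of 3 arrays) for the 20 called genes with a symbol (horizontal axis, 1 probe set each), with a point per dog coloured by group. In SLC22A3 the paced dogs lie clear of the Day-0 dogs, in THBS1 and CLGN a Day-3 dog lies inside the Day-0 range, and in ACTA1 a Day-3 dog lies far below the rest.

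Of the 9 named genes that fell, 3 encode mitochondrial proteins. The share of such genes among all tested genes was not counted, so this number sets no contrast. TIMM8A, a small chaperone of the intermembrane space that escorts proteins to the inner membrane, lay at 9.54, 9.70 and 9.56 in the Day-0 dogs and between 8.70 and 9.28 in the paced dogs. The groups did not overlap, and the difference was -0.66 (SE 0.10, adjusted p = 0.0228, limma). A dimmer probe set for TIMM8A gave -0.64 with an adjusted p of 0.0725. FMC1, an assembly factor of the ATP synthase, lay at 9.20, 9.78 and 9.54 against 8.56 to 9.19, so that the highest paced dog was just below the lowest Day-0 dog (difference -0.68, SE 0.13, adjusted p = 0.048, limma). MRPL38, a protein of the large mitochondrial ribosome subunit, lay at 8.06, 8.18 and 8.35 against 7.37 to 7.82 (difference -0.57, SE 0.11, adjusted p = 0.048, limma).

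ACTA1 encodes skeletal alpha-actin, which the fetal and the stressed ventricle are known to express. A single ACTA1 probe set fell 2.99-fold (difference -1.58, SE 0.29, adjusted p = 0.044, limma). It lay at 9.78, 10.15 and 9.65 in the Day-0 dogs and between 6.39 and 8.91 in the paced dogs, and Day-3 dog 2 was far below all others. The 3 other tested ACTA1 probe sets gave -0.04, -0.05 and -0.17 with adjusted p values from 0.719 to 0.983. The probe sets of this gene thus disagree, and members of the actin family are close in sequence, so its direction is uncertain.

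The other genes that fell came from several functions. DHRS11, a short-chain dehydrogenase, was 1.93-fold lower: 10.34, 10.35 and 9.95 in the Day-0 dogs and 8.66 to 9.60 in the paced dogs (difference -0.95, SE 0.18, adjusted p = 0.048, limma). ATP6V1G2, a subunit of the proton pump of acidic organelles, lay at 8.21, 8.38 and 8.17 against 7.41 to 7.90, a difference of -0.60 with an adjusted p of 0.044 (limma). PPM1J, a protein phosphatase, lay at 7.78, 7.84 and 7.40 against 6.70 to 7.33 (difference -0.59, adjusted p = 0.0487, limma), while a dimmer probe set for it gave 0.02. PCMTD2, named for a domain of protein isoaspartate methyltransferases, fell by 0.70 on 1 probe set (adjusted p = 0.048, limma), and 2 dimmer ones gave 0.15 and -0.16. PYROXD1, an oxidoreductase whose loss causes a myopathy in people, fell by 0.60 (adjusted p = 0.048, limma) with Day-3 dog 1 at the lowest Day-0 value, 8.21. It lies outside the naming rule and is given because it completes the 9.

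The called differences had the same sign at each stage mean. In 43 of 43 called probe sets all 4 stage means lay on the side of the call, and in 41 each stage also had an unadjusted p under 0.05 against Day-0. The 4 stage differences share the 3 Day-0 dogs and are not independent of each other, and the call used them. Taken by themselves, with adjustment over all probe sets, 0 of the 43 passed at Day-3 (lowest adjusted p = 0.145, limma), 4 at Week-1, 12 at Week-2 and 2 at End-stage. The median size of the difference was 0.62 at Day-3, 0.77 at Week-1, 0.82 at Week-2 and 0.76 at End-stage. The stage nearest to Day-0 was Day-3 in 29 of the 43, and the stage farthest from it was Week-2 in 17. Day-3 dog 1 was the paced dog nearest to Day-0 in 20 called probe sets and Day-3 dog 3 in 10. These 2 dogs and Week-1 dog 3 were the only paced dogs that overlapped the Day-0 range in a called probe set.

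A test among the 4 paced stages compares their means and leaves the Day-0 mean out. Its residual variance comes from the fit to all groups, with 10 degrees of freedom, and so includes the Day-0 dogs. The call used the same variance, so this test is not independent of the call. The moderated F test of limma called 0 of 14302 probe sets (0%), with a smallest adjusted p of 0.731, and 599 (4.19%) had an unadjusted p under 0.05. Among the 43 called probe sets 9 had such an unadjusted p. They included CLGN (unadjusted p = 0.000849 of 14302 tested, limma), THBS1 (0.00112) and CCL2 (0.00824), each lower at Day-3 than at Week-2. Evenness over the stages is not shown by the missing calls, since 3 dogs a group give a median SD between dogs of 0.27.

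**Figure D3:**
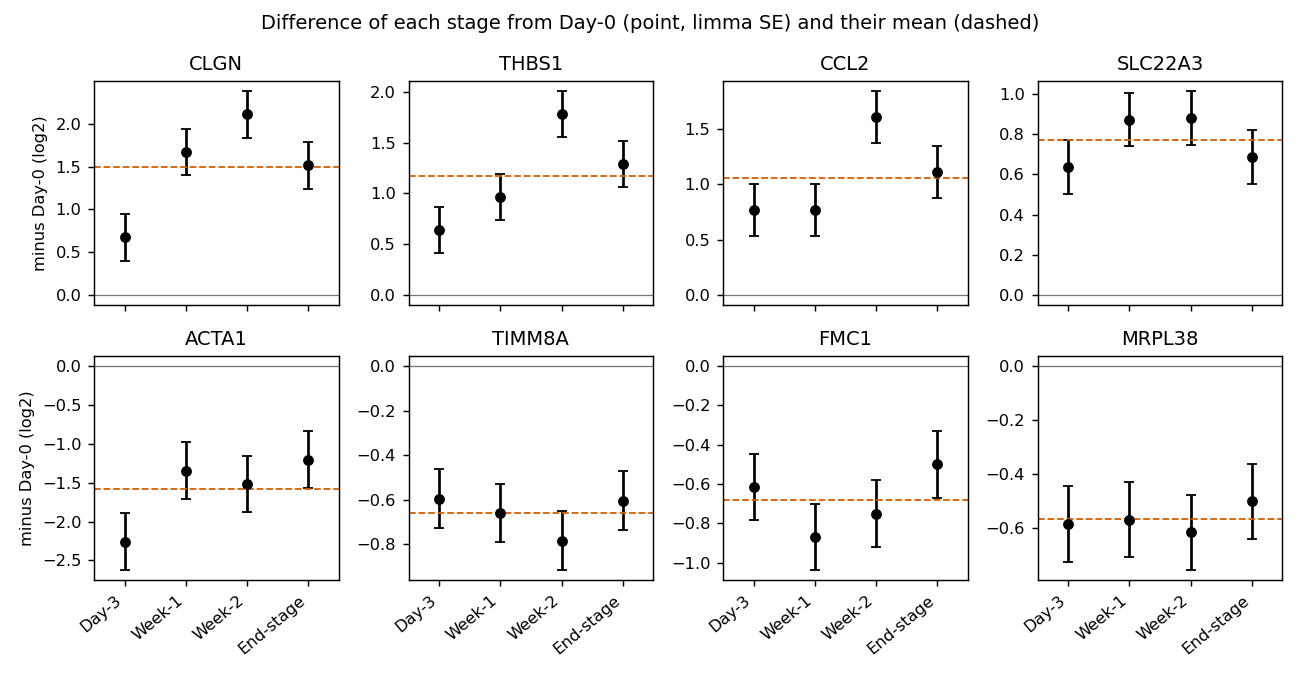
Difference of each pacing stage from Day-0 (vertical axis, log2; scales differ between panels) along the horizontal axis for 8 called genes, with points for the estimates, bars for the limma SE and a dashed line at the mean of the 4 stages. All stages lie on the side of the call, and CLGN runs from 0.68 at Day-3 to 2.11 at Week-2.

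The number of calls depended on single dogs, paced and unpaced. It was 5, 1 and 1 without Day-0 dog 1, 2 or 3, and 111, 23 and 23 without Day-3 dog 1, 2 or 3. Leaving out a Week-1 dog gave 11, 9 and 14, a Week-2 dog 12, 9 and 27, and an End-stage dog 30, 21 and 26. The direction of all 43 called probe sets was the same in each of these fits. Of the 15 fits, SLC22A3 kept its call in 13, CLGN, THBS1 and TIMM8A in 12, AKAP13 in 9, TRIB1 in 8 and CCL2 in 6. APOBEC2, ANTXR2, ACTA1, DHRS11 and PCMTD2 kept it in 3, CALM3, FMC1, ATP6V1G2 and PPM1J in 2, and LGR4, LOXL2, MRPL38 and PYROXD1 in 1. The fits without a Day-0 dog kept fewest: 0 of the 20 named genes without dog 1, 0 without dog 2, and SLC22A3 alone without dog 3. Without the whole Day-3 group 104 were called, and without Week-1, Week-2 or End-stage 11, 3 and 4.

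Genes of mitochondrial energy production lay lower in paced hearts as a group, although none passed the test singly. Of 62 genes listed for oxidative phosphorylation, 41 had a tested probe set, and all 41 had a difference below 0. Their median was -0.24 (-0.37 without Day-0 dog 1), beside -0.01 over all 5278 genes with a tested probe set. In 8 of the 41 (19.5%) all 12 paced dogs lay below the Day-0 dogs, where the background over all probe sets was 1.61% and that of the brightest 2861 probe sets, above a log2 signal of 8.55, was 4.05%. An unadjusted p under 0.05 was found for 22, all lower, against 6.32% of probe sets lower over all tested. The 25 subunits of complex I, the entry point for NADH, had a median of -0.29 and held 7 of the 8. NDUFV2 had -0.50 (SE 0.11, adjusted p = 0.0711, limma) and NDUFS4 -0.38 (adjusted p = 0.0727, limma). The 5 genes of complex III had a median of -0.28, with UQCRC1 separated (-0.33) and CYC1 at -0.38. The 3 of complex IV and the 6 of the ATP synthase had medians of -0.21 and -0.19, and none was separated.

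The median of the oxidative phosphorylation list in each dog, relative to the Day-0 mean, was -0.19, 0.11 and 0.10 in the Day-0 dogs and ran from -0.46 to -0.10 in the paced dogs, so that 9 of 12 lay below all Day-0 dogs. The dog labelled 1 was the lowest of its group in 5 of 5 groups. The cardiomyocyte markers showed the same order, with dog 1 the lowest in 5 of 5 groups. The labels give the dog numbers no meaning across groups. Within the numbers 1, 2 and 3 the paced dogs differed from the Day-0 dog of that number by -0.24, -0.30 and -0.29. Read in this way, the matrix and fibrosis list gave 0.31, -0.05 and 0.79, so its sign turned at number 2. The summed signal of the 8 tested cardiomyocyte markers ran from 59405 to 88151 in Day-0 dogs and from 55018 to 81438 in paced dogs. Their median difference was -0.16 (-0.35, -0.05 and -0.07 without Day-0 dog 1, 2 or 3), but -0.01 under quantile normalization, where that of oxidative phosphorylation was -0.17. The part of muscle cell content in these values was not tested.

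Genes of pyruvate dehydrogenase and the tricarboxylic acid cycle, which feed the chain, lay lower in each paced dog as a list. Of 23 tested genes 21 lay below 0, with a median of -0.30, and no gene was called. The median of the list was -0.10, 0.01 and 0.05 in the Day-0 dogs and between -0.38 and -0.14 in the paced dogs, so that 12 of 12 lay below all Day-0 dogs. Complete separation was found for PDHB, a subunit of pyruvate dehydrogenase (-0.38, SE 0.08, adjusted p = 0.061, limma), for IDH3B (-0.35), SUCLA2 (-0.54) and SDHD (-0.30), enzymes of the cycle or their subunits, and for PDK2 (-0.37), a kinase that inhibits pyruvate dehydrogenase. These are 5 of 23 (21.7%), beside 1.61% of all probe sets and 4.05% of the brightest 2861. IDH3A, the catalytic subunit of the NAD-dependent isocitrate dehydrogenase, was -0.48 with 11 of 12 dogs below. The list's stage medians were -0.28, -0.30, -0.28 and -0.32 from Day-3 to End-stage.

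Fatty acid oxidation gave a similar picture with more spread. Of 26 tested genes 19 lay below 0, with a median of -0.22 and no call. ACSL1, which activates long-chain fatty acids, lay lower in all 12 dogs (-0.58, SE 0.13, adjusted p = 0.0711, limma), as did MLYCD (-0.51), which removes the inhibitor malonyl-CoA, and HADHA (-0.49), a subunit of the trifunctional protein. These are 3 of 26 (11.5%), beside 1.61% of all probe sets and 4.05% of the brightest 2861. The fatty acid carrier CD36 was -0.56 with 11 of 12 dogs below. LPL, which frees fatty acids from lipoproteins in the vessel, lay the other way at 1.14, with 8 of 12 dogs above and an adjusted p of 0.228 (limma). For mitochondrial import and the mitochondrial ribosome, 30 genes had a median of -0.13 and 2 calls, TIMM8A and FMC1; the list leaves out MRPL38, which was also called. MRPS7 (-0.29), MRPL19 (-0.34) and MRPS12 (-0.34) were separated without a call. With the 2 called genes, 5 of 30 (16.7%) were separated, beside the same shares of 1.61% and 4.05%. Over all probe sets 0.161% were called lower. Beside these lists, the 34 genes of the cytosolic ribosome and translation had a median of -0.03, or 0.04 under quantile normalization, with 0 separated genes. At the shares over all probe sets, 0.909% above and 1.61% below, a list of 34 genes may hold 0, so that count sets no contrast. The 19 genes of glycolysis and creatine kinase had a median of -0.07, or 0.05 under quantile normalization.

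**Figure D4:**
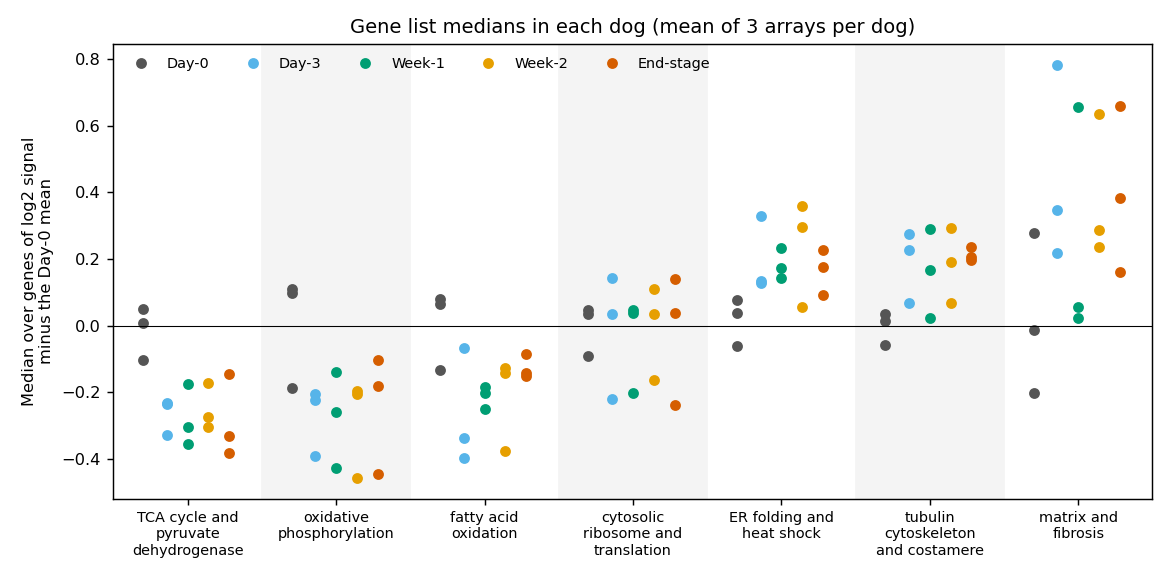
Median of each gene list in each dog (vertical axis, log2 signal minus the Day-0 mean of each gene) for 7 lists along the horizontal axis, with a point per dog coloured by group. For the tricarboxylic acid cycle the 12 paced dogs lie between -0.38 and -0.14, below the lowest Day-0 dog at -0.10, whereas for the cytosolic ribosome the groups overlap.

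Chaperones and folding enzymes of the endoplasmic reticulum lay higher in paced hearts. Of 29 tested genes of this list, which includes heat shock genes, 21 lay above 0, with a median of 0.17 (0.11 without Day-0 dog 2). CLGN alone was called, beside 0.14% of all probe sets called higher. In 4 of the 29 (13.8%) all 12 paced dogs lay above the Day-0 dogs, beside 0.909% of all probe sets and 2.10% of the brightest 2861. They included CALR (0.80, SE 0.18, adjusted p = 0.0711, limma), the calcium-binding chaperone calreticulin, and PDIA4 (0.61), a disulfide isomerase. XBP1 (0.52), a transcription factor of the unfolded protein response, and HSP90AA1 (0.32), a cytosolic chaperone, were the others. SDF2L1 had 1.52, PDIA6 0.46 and HSP90B1 0.55, each with 11 of 12 dogs above. The calnexin gene CANX did not follow, at -0.11 with 7 of 12 dogs below all Day-0 dogs. The list's median in a dog lay above all Day-0 dogs in 11 of 12 paced dogs, Week-2 dog 1 being the exception.

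Several tubulin genes lay higher without a call. The list of tubulin cytoskeleton and costamere, the structure that ties the contractile lattice to the membrane, had 29 tested genes, 23 above 0 and a median of 0.19 (0.12 without Day-0 dog 1 and without the group Day-3). TUBB6 (0.81, SE 0.17, adjusted p = 0.0673, limma), TUBB (0.71), TUBA1C (0.75) and LMNA (0.53), which encodes the nuclear lamins A and C, were separated in all 12 dogs, 4 of 29 (13.8%) beside 0.909% of all probe sets and 2.10% of the brightest 2861. The integrin gene ITGB5 was 0.56 with an adjusted p of 0.0515 (limma) and 11 of 12 dogs above. Other members lay the other way with overlapping dogs, among them GJA1 (-0.68), ANKRD1 (-0.41) and LIMS1 (-0.39). Tubulin genes are close in sequence, and their probe sets may share signal.

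Matrix genes lay higher on the whole but with wide spread between dogs. Of 25 tested genes 21 lay above 0, with a median of 0.36 (0.22 without Day-0 dog 3), and 2 were called, THBS1 and LOXL2. Over all probe sets 0.14% were called higher. TIMP1, an inhibitor of matrix metalloproteinases, lay above in 12 of 12 dogs, at 7.48, 7.41 and 7.58 in Day-0 dogs against 7.61 to 8.48 (difference 0.57, SE 0.16, adjusted p = 0.146, limma). CCN2, connective tissue growth factor, had the largest difference of the list, 1.69 (SE 0.40, adjusted p = 0.0792, limma). Its Day-0 dogs lay at 9.12, 9.03 and 9.37 and 11 paced dogs between 10.41 and 12.30, while Day-3 dog 1, at 8.95, was below them all. The fibrillar collagens overlapped: COL1A1 was 8.26, 9.20 and 7.55 in Day-0 dogs against 8.50 to 10.34 (difference 1.02, SE 0.42, adjusted p = 0.345, limma), and COL3A1 0.36. In all, 12 members had an unadjusted p under 0.05, all higher, against 5.37% of probe sets higher over all tested. Beside those named they were BGN (1.15), SPP1 (1.14), CCN1 (1.02), CILP (0.97), FN1 (0.71), FBN1 (0.63) and SERPINH1 (0.24). The median of the list lay above all Day-0 dogs in 7 of 12 paced dogs. The 4 tested fibroblast markers, all of which are in this list too, summed to 5621 to 8558 in Day-0 dogs and 5602 to 10451 in paced dogs, and the part of fibroblast content in the matrix values was not tested.

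**Figure D5:**
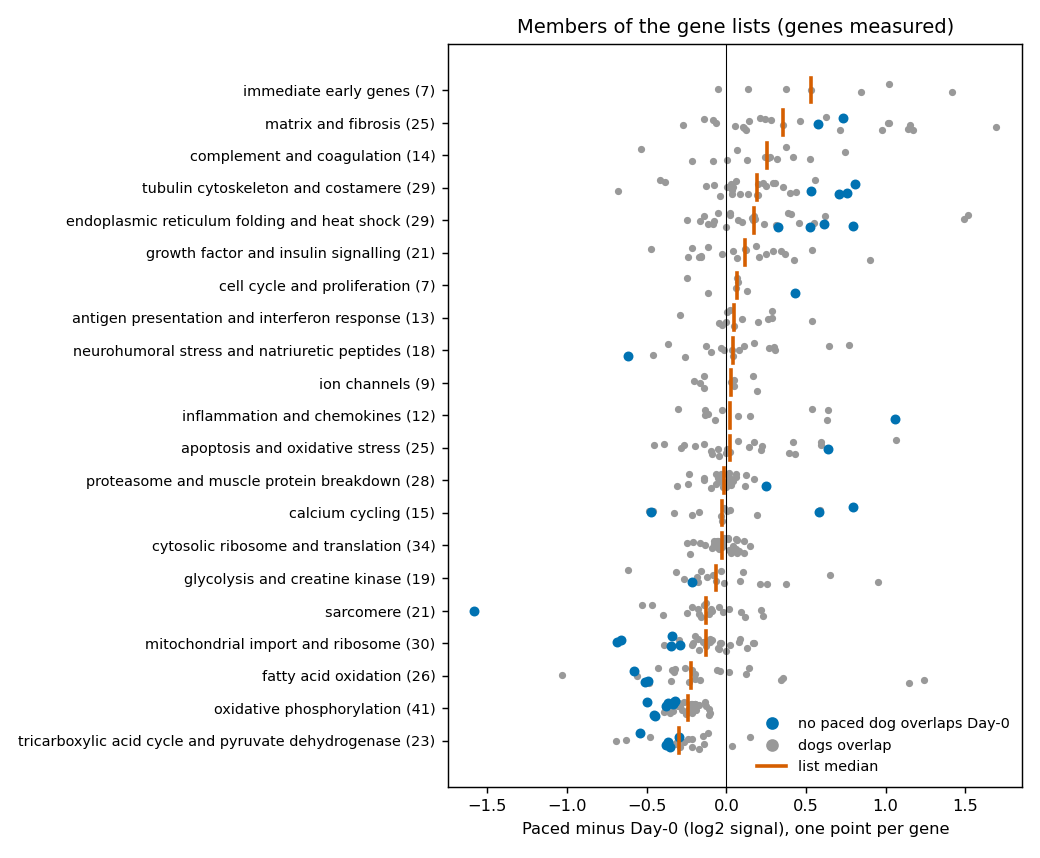
Difference between paced and Day-0 dogs (log2, horizontal axis) of the tested genes of 21 lists (rows, number of genes in brackets), with a point per gene, blue where no paced dog overlaps the Day-0 dogs, and an orange bar at the list median. All 41 genes of oxidative phosphorylation lie below 0, and 21 of 25 matrix genes lie above it.

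Many classical genes of heart failure and of calcium handling were not called in this comparison. Of 26 such genes 17 had a tested probe set, and ACTA1 and THBS1 alone were called, beside 0.301% of all probe sets. An unadjusted p under 0.05 (limma) was found for 4 of the 17 higher and 2 lower, beside 5.37% and 6.32% of all probe sets. Among the rest of the 26, the natriuretic peptide genes NPPA and NPPB, MYH6, PLN, CASQ2, ADRB1, CPT1B and ACE had no tested probe set with a single symbol and were not analysed here. MYH7, the main ventricular myosin, was bright in all dogs, at 13.24, 13.80 and 13.78 in the Day-0 dogs and 13.13 to 13.77 in the paced dogs (difference -0.13, SE 0.18, adjusted p = 0.889, limma). ATP2A2, the calcium pump of the sarcoplasmic reticulum, was -0.17 (SE 0.16, adjusted p = 0.782, limma) on its brightest probe set. Of its 8 other probe sets a single one, at -0.45, separated the dogs. One nearly as bright as the first gave -0.26, and only a dim one, at 0.01, lay above 0. None was called. RYR2, the calcium release channel, lay at 11.15, 11.30 and 11.55 in the Day-0 dogs and below them all in the paced dogs, from 10.55 to 11.07, with a difference of -0.47 (SE 0.11, adjusted p = 0.0711, limma). Its next brightest probe set gave -0.53. SLC8A1, the sodium-calcium exchanger, was -0.46 (SE 0.33), GJA1, the gap junction protein connexin 43, -0.68 (SE 0.35), ANKRD1, a stretch-responsive ankyrin repeat protein, -0.41 (SE 0.23), and PPARGC1A, a coactivator of mitochondrial gene expression, -0.33 (SE 0.20), all with overlapping dogs.

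The channel genes were near 0 with a wide spread. The differences were -0.02 (SE 0.14) for CACNA1C, the L-type calcium channel, 0.03 (SE 0.28) for KCND3 and -0.14 (SE 0.45) for KCNIP2, which form the transient outward current with its accessory subunit, and 0.17 (SE 0.30) for KCNJ2, an inward rectifier. The direction of CACNA1C, KCND3, KCNIP2, KCNJ2 and COL3A1 turned in at least 1 alternative analysis, KCND3 also under quantile normalization.

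Immediate early genes varied too much between dogs for a shared change. The 7 tested had a median of 0.53 (0.35 without Day-0 dog 2, 0.26 without Week-2), but the medians of the stages were 0.26, 0.07, 1.33 and 0.66, and the list lay above all Day-0 dogs in 5 of 12 paced dogs. FOS had 1.41 (SE 1.05, adjusted p = 0.699, limma). Among cell type markers, the 9 tested macrophage genes had a median of 0.22 (0.09 without Day-0 dog 3) and summed to 790.3 to 1043 in Day-0 dogs and 713.2 to 1563 in paced dogs. The 5 tested smooth muscle and pericyte genes had a median of -0.33, with stage medians of -0.12, -0.15, -0.40 and -0.61 from Day-3 to End-stage. It was -0.14 without Day-0 dog 1 and -0.21 without End-stage. The sums were 6369 to 8239 in Day-0 dogs and 5102 to 8288 in paced dogs. No tested probe set was found for the erythrocyte list or for that of mast cells and neutrophils.

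The 23 called probe sets without a single symbol include the largest change and the smallest p. The probe set 1595083_at fell by 0.76 (adjusted p = 0.0126, limma), 1593822_at fell by 1.21 (adjusted p = 0.0126, limma), and 1590146_at rose by 1.69 (adjusted p = 0.0126, limma). One of them, 1587874_s_at, carries several symbols, HSP90AA1 among them, and rose by 0.66, so it is not assigned to a single gene. The probe set that stands for HSP90AA1 in the folding list is another one and was not called. The probe sets of this paragraph were chosen after their values were seen.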

How the data were processed

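Deposited values were linear signal intensity per probe set and array, computed by the authors with GCOS 1.4 and MAS5 per the submitters' processing notes. The scaling is not given in the sources used here: with 2% trimmed at each end, the mean of each array lay between 150.02 and 150.026, which would hide a change of total RNA. Control probe sets (77 of 23913) were left out. Signals were log2 transformed, averaged over the 3 isolations of a dog, and the dimmest 40% were left out, a mean signal under 22.8. Arrays have no sequencing depth, so precision is set by how many dogs there were. limma 3.58.1 in R 4.3.3 fitted a mean per group with an intensity trend, tested on simulated data first. Tests were two-sided.

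Names came from the array's annotation and the RefSeq table of UU_Cfam_GSD_1.0. Of all probe sets, 10549 carried 1 symbol (10046 matched to RefSeq), 138 several and 13149 none. No build is named for the deposited values, so no coordinates are given.

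The naming rule took up to 12 rises and 12 falls, the largest among called probe sets with 1 symbol and no overlapping dog, the heart failure genes, called members of lists, and the 5 called genes with the smallest p among the stages. Lists were read on the brightest probe set of a gene and not tested. The comparison, members and lists were chosen with earlier results of these data known. Alternatives changed the filter, scaling, offset, model, isolations, dogs and groups.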

Additional observations from a re-analysis of the deposited data

Results flagged for a closer look

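CACNA1C, the gene of the pore subunit of the L-type calcium channel, had stage differences of opposite sign at the late stages, neither of which passed the test. All 3 Week-2 dogs lay above the Day-0 mean, with a difference of 0.20 (SE 0.18, adjusted p = 0.758, limma), and all 3 End-stage dogs lay below it, with a difference of -0.20 (SE 0.18, adjusted p = 0.883, limma). The Week-2 dogs lay inside the range of the Day-0 dogs. The difference between these stages was not tested by itself. The F test among the 4 paced stages gave an unadjusted p of 0.221 for this gene (limma).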

How the results depend on the processing

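The results were recomputed under 33 alternatives. All 43 called probe sets kept their direction in each, which their selection on the same values largely fixed. The counts of calls, and of calls with no overlap, moved. They were 21 and 17 with no filter on dim probe sets, 81 and 66 with the lowest 60% left out, and 68 and 57 under quantile normalization. Median centring gave 14 and 10, 64.3% of the calls being higher against 46.5%. Without the intensity trend they were 6 and 4, and with the paced dogs as 1 group 80 and 73. With the 45 arrays and the dog as a random block they were 701 and 274, with 55 probe sets differing among stages. Without isolation 1 they were 26 and 20, and without isolation 3, 13 and 10. Without Week-1 dog 1 and End-stage dog 1 they were 28 and 21. Leaving out the group Day-3 gave 104 and 99, Week-1 11 and 8, Week-2 3 and 3, and End-stage 4 and 3. Leaving out 1 dog gave 1 to 111 calls, 1 to 99 with no overlap, and 0 to 1 probe set differing among stages.

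With the dog number as a replicate block 219 were called, 135 with no overlap, and 1 differed among stages. For the comparison with Day-0 the numbers did not meet the rule for pairing, every pair above 0.1: Day-0 and paced dogs of the same number correlated from -0.08 to 0.17 in their deviations, and 7 of 12 paced dogs correlated best with the Day-0 dog of their own number. Among the paced groups all 18 pairs lay above 0, from 0.05 to 0.35, and 3 of 6 comparisons met the rule, so an effect of number is not excluded.

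The uncalled genes that turned direction were as follows. KCND3 was -0.0033 under quantile normalization, -0.0932 without isolation 3, -0.0204 without Week-1 and -0.0166 without Week-2, and from -0.1704 to 0.2737 without 1 dog. CACNA1C was 0.056 without isolation 2, 0.0149 without isolation 3, 0.0106 without both dogs, 0.042 without End-stage, and from -0.1228 to 0.1306 without 1 dog. KCNJ2 was -0.1488 without isolation 3. KCNIP2 ran from -0.3553 to 0.0763 and COL3A1 from -0.0852 to 0.8625 without 1 dog. The cause was not tested for any of these.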

Other observations

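A further 324 probe sets separated all 12 paced dogs from the 3 Day-0 dogs without being called, 114 higher and 210 lower, with adjusted p values from 0.0509 to 0.523 (limma). The genes below were chosen among them, after their values were seen, as the 6 largest differences in each direction with a symbol. CTH, which makes cysteine and hydrogen sulfide from cystathionine, had the largest, 2.50 (SE 0.50, adjusted p = 0.051, limma). It was dim and uneven in the Day-0 dogs, at 4.58, 1.78 and 3.96, against 4.63 to 7.43 in the paced dogs. The Day-0 mean of CTH, 3.44, lay under the lowest mean kept by the filter on dim probe sets, 4.51. CTH thus entered the test only through its level in the paced dogs, and the size of its difference carries this limit. NFIL3, a transcriptional repressor of the bZIP family, lay at 8.48, 7.38 and 8.84 against 8.90 to 9.88 (difference 1.19), and PCDH9, a protocadherin, at 6.07, 6.70 and 7.33 against 7.40 to 8.20. In each of these the lowest paced dog was close to the highest Day-0 dog. PHTF1 and TMEM120A had differences of 1.02 and 0.99, and TUBB6 is given with the tubulins.

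Among the genes that lay lower, ANK1, an ankyrin that links membrane proteins to the spectrin skeleton, was at 10.86, 11.13 and 11.24 in the Day-0 dogs against 8.74 to 10.69 (difference -1.32, SE 0.26, adjusted p = 0.0509, limma). KYAT1, an aminotransferase of the kynurenine pathway, was at 8.77, 8.22 and 9.14 against 6.85 to 8.21 (difference -1.06). ALAS1, the rate-limiting enzyme of haem synthesis outside red cells, was at 10.71, 11.21 and 10.81 against 9.63 to 10.66 (difference -0.77). BVES, a Popeye protein of muscle membranes that binds cyclic AMP, was at 8.90, 8.94 and 8.71 against 7.14 to 8.45 (difference -0.77). DAO and PLXNB1 were dim and had differences of -1.09 and -1.02.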
